A study of Mus musculus with 8 samples.

Results

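Toll-like receptors are the pattern recognition receptors by which myeloid cells sense bacteria and viruses. All 10 of the mouse receptor genes listed for this report (Tlr1, Tlr2, Tlr3, Tlr4, Tlr5, Tlr6, Tlr7, Tlr8, Tlr9 and Tlr13) were found by Ensembl identifier among the 26930 genes of the count table, and all 10 passed the filter on low counts that left 12852 genes for testing. They were chosen by gene family name, but the family was proposed with fold changes of this same treatment already known. Their treatment differences are therefore given as a description, with no p-value for a single receptor. The RNA was taken from myeloid-derived suppressor cells (MDSCs), a heterogeneous population of immature myeloid cells able to suppress T cells. Marrow of C57BL/6 mice was cultured in 40 ng/ml of IL-6 and 40 ng/ml of GM-CSF, with supernatant of the mouse prostate cancer line TRAMP-C1 from day 4, and all cells of both groups are labelled senescent-like. Cells of 4 libraries then received Romidepsin, a histone deacetylase inhibitor, at 0.5 µM for 6 h, and cells of the other 4 libraries were untreated. Nothing in the labels says that the replicates were separate cultures or mice, so each p-value refers to the spread between libraries alone, which may be technical.

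Surface receptors recognise components of microbial walls and flagella at the plasma membrane, whereas endosomal receptors recognise nucleic acids after uptake. Both kinds signal through adaptor proteins that bind a shared cytoplasmic domain, most of them through MyD88, towards NF-kB and interferon regulatory factors. Endosomal receptors also need the chaperone protein Unc93b1 to leave the endoplasmic reticulum. Monocytes, macrophages and neutrophils carry most of these receptors, and B cells carry Tlr7 and Tlr9.

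The libraries held between 12996892 and 23176949 counts, and untreated replicate 4 was the deepest. Levels are given as CPM, the count relative to library size after TMM scaling, and fold changes are log2 values of Romidepsin over untreated cells with a standard error (SE) from edgeR's quasi-likelihood fit. Among treated libraries, Romidepsin replicate 3 held the highest CPM of all 10 receptors and Romidepsin replicate 4 the second highest. Results that rest on replicate 3 are therefore also given without it. Defining granulocyte and monocyte genes were detected in all libraries, with Ly6c2 at 123 to 1222 CPM in treated and 573 to 1747 CPM in untreated cells, but the granulocyte marker Ly6g reached only 1.38 to 11.5 CPM in treated and 4.68 to 19.6 CPM in untreated cells.

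After Romidepsin, the fold change of every receptor was below 0. By the threshold of 0.05 on the Benjamini-Hochberg adjusted p of edgeR's quasi-likelihood test over all 12852 genes, 7 of the 10 were called lower (Tlr1, Tlr2, Tlr4 and Tlr6 at the surface, and Tlr7, Tlr9 and Tlr13 in endosomes), where 16.2% of all tested genes were called lower. With the libraries paired by a replicate block, 9 were called, against 20.8% of all genes, the additions being Tlr3 and Tlr8. Every treated library lay below every untreated one for 4 of the 10 (Tlr2, Tlr6, Tlr7 and Tlr13), and for 16.5% of tested genes. Since the receptors were proposed with this contrast known, nothing is read from these counts. They also rested on single libraries: 10 were called without Romidepsin replicate 3 and 10 without both libraries of number 3, but 1 without Romidepsin replicate 4 (Tlr6), 2 without untreated replicate 3 or 4 (Tlr6 and Tlr9) and 2 with no count filter (Tlr2 and Tlr6). Without Romidepsin replicates 1 and 2 in turn, 4 and 3 were called. The fits with libraries left out did not use the replicate block.

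**Figure D1:**
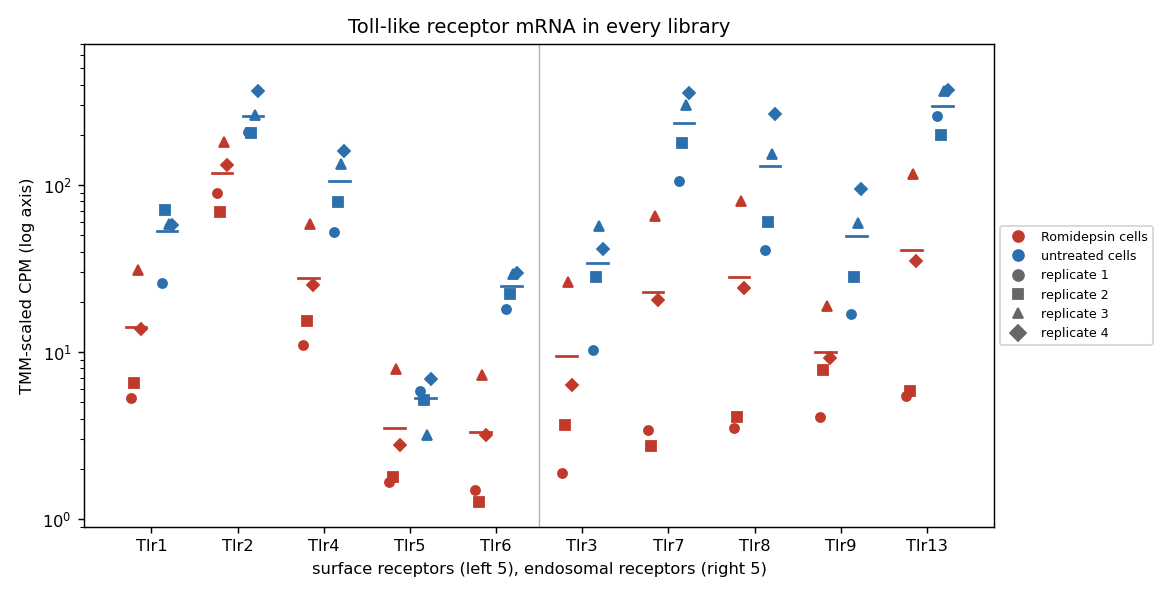
TMM-scaled CPM of the 10 receptors on a log axis, 1 point per library with its replicate number as the marker, Romidepsin libraries in red left of untreated libraries in blue, and bars at the group means (n = 4 each). Romidepsin replicate 3 is the highest treated library for every receptor, and the groups are separate for Tlr2, Tlr6, Tlr7 and Tlr13.

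At the surface, Tlr2, which pairs with Tlr1 or Tlr6 to recognise bacterial lipopeptides, had the highest level per kb of exon in both groups and the smallest decrease of the 7 receptors called lower. Its level was 89.7, 69.5, 182 and 131 CPM in Romidepsin replicates 1 to 4, against 208, 206, 264 and 365 CPM in untreated replicates 1 to 4. The groups did not overlap, and the log2 fold change was −1.14 ± 0.32. Tlr1, its partner for triacylated lipopeptides, had 5.33, 6.54, 31.0 and 13.8 CPM in treated libraries and 26.1, 71.1, 58.4 and 57.6 CPM in untreated ones (log2 fold change −1.91 ± 0.56). The groups touched only through Romidepsin replicate 3, which exceeded untreated replicate 1. Tlr6, the partner for diacylated lipopeptides, was down to 1.49, 1.27, 7.28 and 3.17 CPM in treated cells, against 18.1, 22.2, 29.3 and 29.8 CPM in untreated cells. Its log2 fold change of −2.91 ± 0.53 was the lowest of the surface receptors, and Tlr6 was the one receptor called in every alternative setting tried.

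Tlr4, the receptor for lipopolysaccharide, had 11.0, 15.4, 58.9 and 25.3 CPM in Romidepsin replicates 1 to 4 and 52.1, 78.8, 134 and 161 CPM in the untreated ones. Only Romidepsin replicate 3 reached the untreated range, and the log2 fold change was −1.95 ± 0.55. Tlr5, the flagellin receptor, had the lowest mean level per kb of exon of the 10 in both groups, with 1.66, 1.78, 7.88 and 2.78 CPM in treated and 5.84, 5.20, 3.21 and 6.87 CPM in untreated libraries. Romidepsin replicate 3 held the highest value of all 8 libraries while the other treated libraries lay below every untreated one, and its log2 fold change of −0.59 ± 0.53 was about the size of its SE. Without Romidepsin replicate 3 that fold change was −1.38, and without both libraries of number 3 it was −1.54.

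Among endosomal receptors, Tlr7 and Tlr13, both sensors of single-stranded RNA (Tlr13 of bacterial ribosomal RNA), fell most. Tlr7 had 3.44, 2.73, 65.3 and 20.6 CPM in treated libraries and 105, 179, 304 and 356 CPM in untreated ones, with a log2 fold change of −3.36 ± 0.97. Tlr13 had 5.45, 5.84, 116 and 35.01 CPM in treated and 260.2, 200.2, 364 and 373 CPM in untreated libraries (−2.88 ± 0.91). Both were separate between groups although the treated libraries themselves spanned 23.9-fold for Tlr7 and 21.3-fold for Tlr13, with replicates 1 and 2 at the bottom and replicate 3 at the top. Without Romidepsin replicate 3 the log2 fold changes were −4.75 for Tlr7 and −4.30 for Tlr13.

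Tlr8, the X-linked neighbour of Tlr7 and likewise a sensor of RNA in human cells, had 3.50, 4.06, 80.4 and 24.2 CPM in treated cells and 41.1, 60.5, 153 and 267 CPM in untreated cells. Romidepsin replicate 3 exceeded untreated replicates 1 and 2, and untreated libraries alone spanned 6.50-fold. Its log2 fold change was −2.22 ± 1.005, or −3.65 without Romidepsin replicate 3 and −1.60 without untreated replicate 4. Tlr9, which recognises unmethylated CpG DNA, had 4.07, 7.81, 19.0 and 9.19 CPM in treated and 16.9, 28.0, 58.9 and 95.2 CPM in untreated libraries. The overlap came from Romidepsin replicate 3 alone, and the log2 fold change was −2.32 ± 0.61. Tlr3, the sensor of double-stranded RNA, which signals without MyD88, had 1.89, 3.68, 26.1 and 6.34 CPM in treated libraries and 10.3, 28.2, 56.7 and 41.7 CPM in untreated ones (−1.85 ± 0.80). Romidepsin replicate 3 exceeded untreated replicate 1, and without that treated library the fold change was −3.15.

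By class, the endosomal receptors were not set apart from the surface receptors by their single fold changes in the fit without pairing. The median log2 fold change was −2.32 for the 5 endosomal receptors (range −3.36 to −1.85) and −1.91 for the 5 surface receptors (range −2.91 to −0.59), while the median of all tested genes was 0.01. The ranges overlapped: Tlr6 at the surface lay beside Tlr13, and Tlr3 in endosomes beside Tlr1. Without Romidepsin replicate 3 they overlapped through Tlr6 (−3.68) alone. Endosomal values then ran from −4.75 (Tlr7) to −2.86 (Tlr9), and the next surface receptor was Tlr1 at −2.67. With the replicate block, endosomal values ran from −4.30 (Tlr7) to −2.22 (Tlr9) and surface values from −3.19 (Tlr6) to −0.88 (Tlr5). These ranges overlapped through Tlr6 alone, and the next surface receptor, Tlr1 at −2.16, lay close to Tlr9. Compared within replicate numbers, 9 of the 10 receptors were lower in all 4 treated libraries than in their untreated counterparts, as were 29.5% of all tested genes. Tlr5 was the exception, higher by 1.26 log2 units in number 3.

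**Figure D2:**
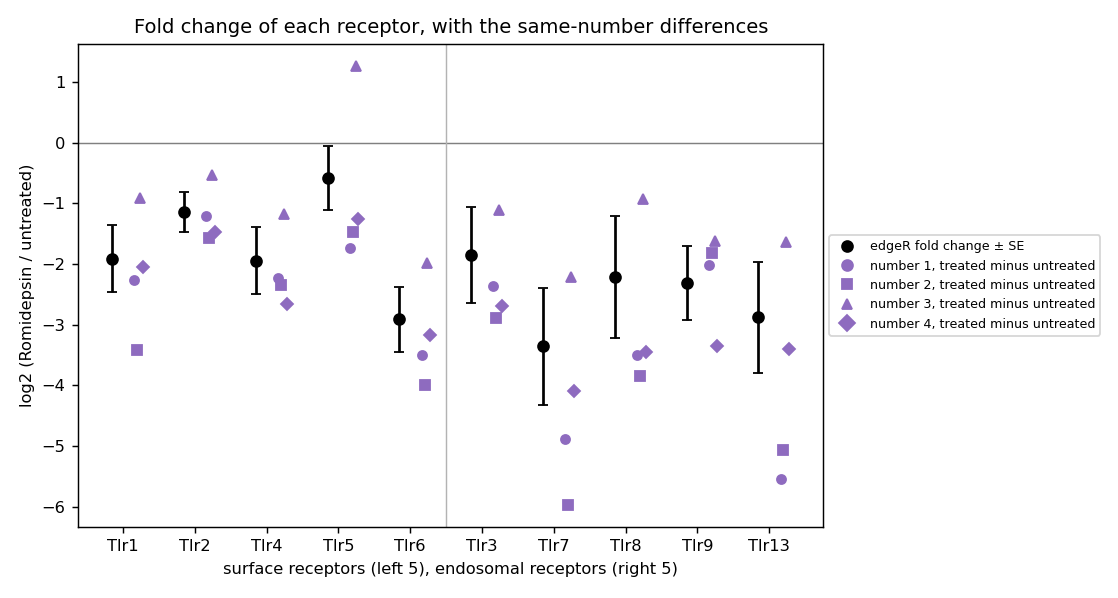
Log2 fold change of Romidepsin over untreated cells for each receptor (black, edgeR estimate ± SE, 4 libraries per group) beside the 4 same-number differences of log2 CPM (purple). The number 3 difference (triangle) is the smallest decrease for every receptor and lies above 0 for Tlr5.

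The shares of the classes in all receptor mRNA, given here as a description, did not overlap between groups. To compare receptors with each other, CPM was divided by the length of the merged exons in kb. In these units, the endosomal receptors made up 11.9%, 17.7%, 47.5% and 30.7% of all receptor mRNA in Romidepsin replicates 1 to 4 and 53.1%, 52.2%, 62.5% and 61.6% in untreated replicates 1 to 4. Every treated library was below every untreated one, and this share does not depend on how libraries are scaled to each other. The summed endosomal level was 27.6 ± 33.3 CPM per kb in treated and 185 ± 86.2 CPM per kb in untreated cells (SD, n = 4 each), and the summed surface level 49.98 ± 24.9 and 129 ± 36.6 CPM per kb. Tlr2 supplied 76.9%, 66.6%, 37.8% and 56.2% of receptor mRNA in treated libraries and 23.9% to 35.1% in untreated ones. With Tlr2 left out of the surface sum, the surface to endosomal ratio was 0.309 to 0.936 in treated and 0.196 to 0.352 in untreated libraries, which overlapped through Romidepsin replicate 3. Within each of the replicate numbers 1 to 4, that ratio was 0.936, 0.889, 0.309 and 0.425 in the treated library and 0.222, 0.352, 0.218 and 0.196 in the untreated one, higher in the treated library each time.

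**Figure D3:**
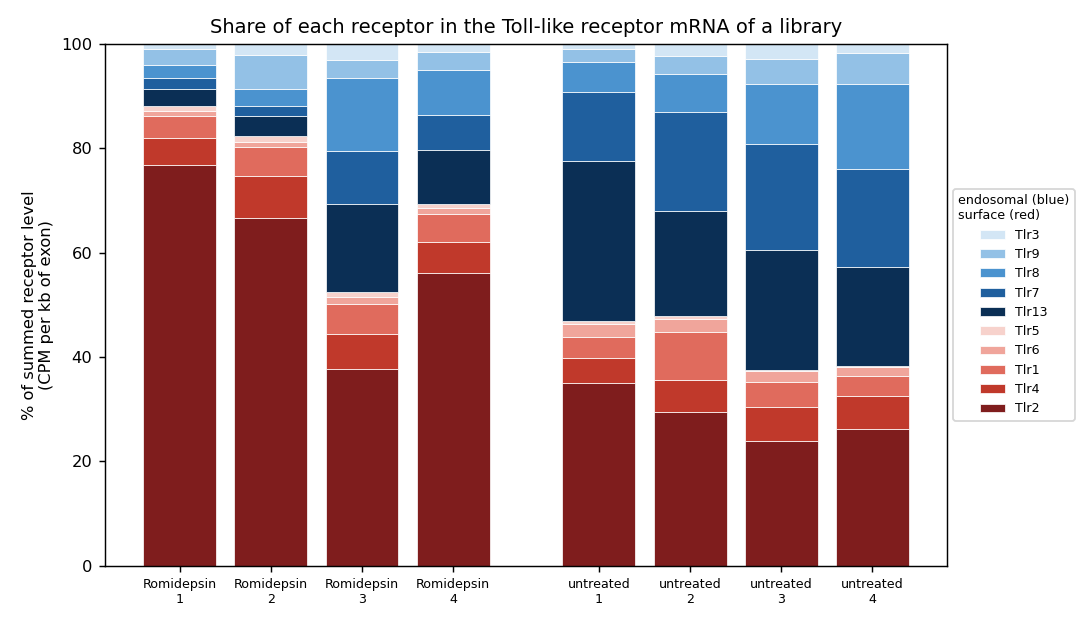
Percent of the summed receptor level (CPM per kb of exon) held by each receptor in each library, surface receptors in red and endosomal receptors in blue, Romidepsin libraries left of untreated ones. The Tlr2 share is 37.8% to 76.9% in treated and 23.9% to 35.1% in untreated libraries.

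In treated cells Tlr2 ranked first at 39.1 ± 16.4 CPM per kb, followed by Tlr13 (9.44 ± 12.1), Tlr8 (7.82 ± 10.1), Tlr7 (5.64 ± 7.19), Tlr4 (4.98 ± 3.90), Tlr1 (4.24 ± 3.54), Tlr9 (2.88 ± 1.83), Tlr3 (1.83 ± 2.16), Tlr6 (0.886 ± 0.747) and Tlr5 (0.736 ± 0.615). In untreated cells the order of these levels was Tlr2 (86.5 ± 24.6 CPM per kb), Tlr13 (69.5 ± 19.4), Tlr7 (57.8 ± 28.0), Tlr8 (36.3 ± 28.8), Tlr4 (19.2 ± 8.96), Tlr1 (15.9 ± 5.73), Tlr9 (14.3 ± 10.1), Tlr6 (6.67 ± 1.52), Tlr3 (6.58 ± 3.79) and Tlr5 (1.10 ± 0.322). Between neighbours in either order the ranges over libraries overlapped, except that Tlr5 lay below Tlr3 in every untreated library. Within a library, however, Tlr2 exceeded Tlr13 in all 4 treated and all 4 untreated libraries.

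Inside a library, of 5 ratios between receptors of one class, Tlr7 to Tlr8 and Tlr1 to Tlr6 were separate between groups. Tlr7 stood at 0.864, 0.590, 0.714 and 0.749 of the Tlr8 level in Romidepsin replicates 1 to 4, and at 2.25, 2.61, 1.75 and 1.17 times it in untreated replicates 1 to 4, so that Tlr8 was above Tlr7 in every treated library and below it in every untreated one. Tlr7 and Tlr8 lie 40599 bases apart on the X chromosome with no annotated gene between them. The ratio of Tlr13 to Tlr8 was 1.198 to 1.298 in the 4 treated libraries, although their Tlr13 level spanned 21.3-fold, while in untreated replicates 1 to 4 it was 5.28, 2.76, 1.99 and 1.16, with untreated replicate 4 below all treated libraries and the other untreated ones above them. Of the partners of Tlr2, Tlr1 exceeded Tlr6 by 3.98-fold to 5.74-fold in treated and by 1.5997-fold to 3.57-fold in untreated libraries, again without overlap. Tlr1 and Tlr6 are neighbours on chromosome 5, with 18467 bases between them, and share 10.3% of the distinct 75-base stretches of Tlr1 transcripts, so part of their reads may have been assigned to either. No other pair of these receptors shared a stretch of that length. The ratio of Tlr13 to Tlr7 overlapped, at 1.502 to 2.03 in treated and 0.994 to 2.34 in untreated libraries. So did that of Tlr2 to Tlr4, at 5.68 to 15.02 in treated and 3.64 to 7.37 in untreated libraries.

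**Figure D4:**
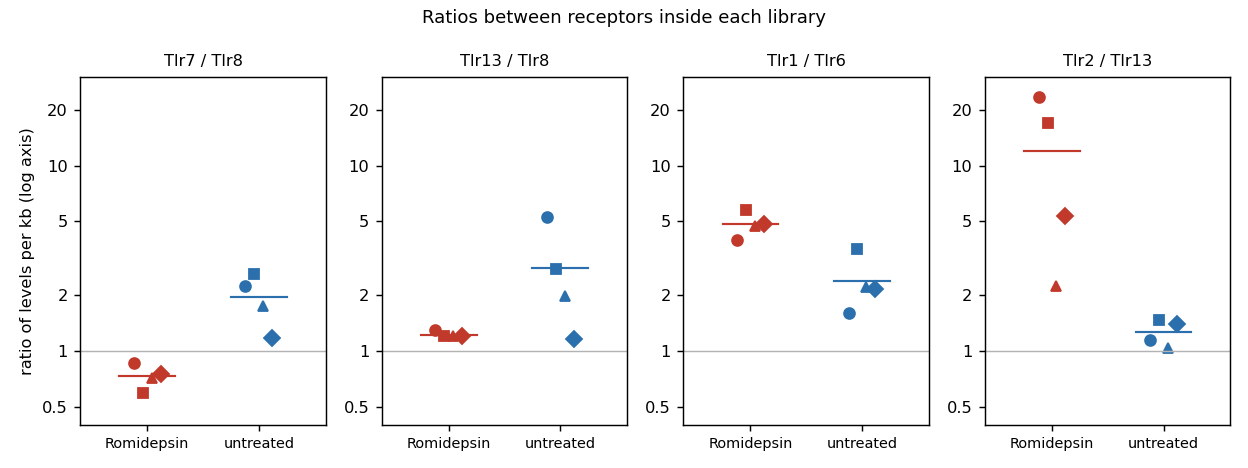
Ratios of levels per kb of exon between receptor pairs in each library, on a log axis, Romidepsin (red) left of untreated (blue), with bars at the group means (n = 4 each) and a grey line at equal levels. Tlr7 / Tlr8 lies below 1 in all treated and above 1 in all untreated libraries, and Tlr13 / Tlr8 is nearly constant among treated libraries.

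The promoter sequences of 4 receptors are shown as examples: Tlr13, Tlr8 and Tlr9 in endosomes and Tlr2 at the surface. They are the 250 bases before the RefSeq start site on GRCm38.p6, printed 5′ to 3′ on the gene's strand, chrX:106143025-106143274 (plus) for Tlr13, chrX:167264330-167264579 (minus) for Tlr8, chr9:106222348-106222597 (plus) for Tlr9 and chr3:83841609-83841858 (minus) for Tlr2. In the GENCODE annotation, Tlr13 starts at 106143204 and Tlr2 at 83841767, so part of these 2 windows lies inside the annotated gene. Capitals mark exact matches on either strand to GAGGAA, GAAANNGAA and GGGANTTTC. GAGGAA is one form of the site bound by ETS factors such as PU.1. GAAANNGAA is the core of the interferon-stimulated response element, and GGGANTTTC a part of the NF-kB element.
Tlr13: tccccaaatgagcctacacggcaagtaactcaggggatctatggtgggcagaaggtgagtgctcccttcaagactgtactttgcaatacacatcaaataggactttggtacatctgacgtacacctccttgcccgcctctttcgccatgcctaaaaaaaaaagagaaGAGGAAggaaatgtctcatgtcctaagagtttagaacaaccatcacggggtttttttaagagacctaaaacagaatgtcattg
Tlr8: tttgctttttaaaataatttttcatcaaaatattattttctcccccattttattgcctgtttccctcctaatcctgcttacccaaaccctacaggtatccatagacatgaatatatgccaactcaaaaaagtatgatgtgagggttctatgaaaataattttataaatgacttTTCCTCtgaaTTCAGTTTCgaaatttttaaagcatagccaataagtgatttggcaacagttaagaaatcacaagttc
Tlr9: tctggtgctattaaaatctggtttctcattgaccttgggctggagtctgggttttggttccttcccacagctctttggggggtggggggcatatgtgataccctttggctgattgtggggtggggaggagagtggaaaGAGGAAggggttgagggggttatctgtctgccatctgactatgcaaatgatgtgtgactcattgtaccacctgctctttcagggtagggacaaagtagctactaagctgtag
Tlr2: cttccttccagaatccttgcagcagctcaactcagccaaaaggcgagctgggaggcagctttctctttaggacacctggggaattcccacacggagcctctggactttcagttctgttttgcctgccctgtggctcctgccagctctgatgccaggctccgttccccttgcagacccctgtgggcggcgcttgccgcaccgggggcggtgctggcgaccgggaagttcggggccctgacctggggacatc
The RefSeq table held 10 windows for 8 of the 10 receptors, Tlr4 and Tlr7 being the ones without an entry. The ETS letters stood in 4 of these 10 windows (1 each of Tlr1, Tlr8, Tlr9 and Tlr13) and in 23.3% of 32851 such windows over all genes. Surface Tlr1 thus held these letters and endosomal Tlr3 did not, so the sequences shown do not stand for their classes. The interferon response letters stood in 2 of them (Tlr6 and Tlr8, against 7.13% of all windows) and the NF-kB letters in 1 (Tlr3, against 0.941%). Both this Tlr6 window and the Tlr3 window lie inside the gene as GENCODE annotates it. In the Tlr8 window the ETS and interferon response letters lie close together on the opposite strand. The Tlr2 window held no exact match to any of the 3 letter strings. Other forms of these sites were not searched, so none of these windows is shown to lack such a site.

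On GRCm38, with the GENCODE annotation, the surface receptors are protein-coding genes at chromosome 5, 64924679 to 64933563 (Tlr1), chromosome 3, 83836272 to 83841767 (Tlr2), chromosome 4, 66827584 to 66930284 (Tlr4), chromosome 1, 182954788 to 182976044 (Tlr5) and chromosome 5, 64952031 to 64960097 (Tlr6). The endosomal receptors lie at chromosome 8, 45395665 to 45411080 (Tlr3), chromosome X, 167304929 to 167330558 (Tlr7), chromosome X, 167242696 to 167264329 (Tlr8), chromosome 9, 106222598 to 106226883 (Tlr9) and chromosome X, 106143204 to 106160493 (Tlr13). Of these, only Tlr3 shares exon sequence with another annotated gene, Gm45542 on the opposite strand, and the strand setting of the counts is not given in the sources used here.

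Of the other genes of the pathway, more fell than rose. Of 70 tested genes in 7 lists, 21 fell and 7 rose in edgeR's quasi-likelihood test (30% and 10%), where 16.2% of all tested genes fell and 20.3% rose, and their median log2 fold change was −0.55, with 0.01 for all tested genes. The 21 became 12, 12 and 11 without Romidepsin replicates 1, 2 and 4, 10 without untreated replicate 3 and 7 with housekeeping scaling, where 9 rose. With the replicate block 30 fell and 8 rose. The 7 became 4 without each of the first 3 of these and without untreated replicate 3. Among 9 genes for receptor folding, trafficking and cleavage, 3 fell (33.3%) and 6 did not pass. With the replicate block 6 were lower and 1, the protease gene Ctsl, was higher. The number lower was 1 with housekeeping scaling or without Romidepsin replicate 2 or untreated replicate 3 or 4. Unc93b1, the chaperone that carries endosomal receptors to their compartment, fell to 380 ± 250.2 CPM in treated cells, against 1119 ± 154 CPM in untreated cells (log2 fold change −1.56 ± 0.46, adjusted p = 0.0286), and its call was lost with housekeeping scaling and without untreated replicate 2, 3 or 4 or Romidepsin replicate 2 (adjusted p up to 0.0672). Cnpy3, a chaperone used by several surface and endosomal receptors, fell by 1.08 on the log2 scale (SE 0.23, adjusted p = 0.00821), and this call held in every alternative setting. Slc15a4, a lysosomal transporter needed for Tlr7 and Tlr9 responses, fell by 0.78 (adjusted p = 0.0338), and its call was lost in 7 of 17 alternatives (adjusted p up to 0.160), among them the omission of Romidepsin replicate 1, 2 or 4 or of untreated replicate 3 or 4. The protease Ctsb, the most abundant uncalled gene of this list, was at 7564 ± 3806 CPM in treated and 11181 ± 4753 CPM in untreated cells (adjusted p = 0.365, and 0.0336 with the replicate block).

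Over all tested genes, 16.2% fell and 20.3% rose. Of 5 tested adaptors, 3 fell (60%) and 2 did not pass, with a median log2 fold change of −1.39. Tirap, which bridges Tlr2 and Tlr4 to MyD88, was at 11.8 ± 6.89 CPM in treated and 41.7 ± 8.998 CPM in untreated cells (log2 fold change −1.83 ± 0.36, adjusted p = 0.00658). Pik3ap1, which links the receptors to phosphoinositide 3-kinase, fell by 1.72 (adjusted p = 0.0133), and both calls held in every alternative. Myd88 itself fell by 1.22 (SE 0.37, adjusted p = 0.0308), and its call was lost with housekeeping scaling and without any one of Romidepsin replicates 1, 2 and 4 and untreated replicates 2, 3 and 4 (adjusted p up to 0.0842). Ticam1, the adaptor Tlr3 uses in place of MyD88, had 34.2 ± 5.48 CPM in treated and 40.9 ± 5.07 CPM in untreated cells and did not pass (−0.26 ± 0.17, adjusted p = 0.242). Of 15 proximal kinases and ubiquitin ligases, 7 fell and 2 rose (46.7% and 13.3%), against 4 lower without any one of Romidepsin replicates 1, 2 and 4 and untreated replicates 3 and 4, and 1 higher with the replicate block or without any one library other than Romidepsin replicate 3 or untreated replicate 4. Irak4, the first kinase recruited by MyD88, fell by 1.18 (adjusted p = 0.00695) and Tab1, an activator of the kinase TAK1, by 1.11 (adjusted p = 0.00656), whereas Chuk, which encodes the kinase IKKα, rose by 0.92 (adjusted p = 0.00906).

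Further along the pathway, 4 of 8 transcription factors fell (50%, where 16.2% of all tested genes fell), against 2 without Romidepsin replicate 4 or with library size alone and 1 with housekeeping scaling. Irf5, an interferon regulatory factor used by MyD88-dependent receptors, was at 70.4 ± 62.8 CPM in treated and 316 ± 27.3 CPM in untreated cells (log2 fold change −2.17 ± 0.57, adjusted p = 0.0183), its call being lost when no count filter was applied (adjusted p = 0.0708), and Rela, the p65 subunit of NF-kB, fell by 0.74 (adjusted p = 0.00456, or 0.0524 with housekeeping scaling). Of 6 co-receptor genes 1 fell, or 16.7%, near the 16.2% of all tested genes. This was Cd180, a Toll-like receptor homologue of B cells and macrophages (−2.88 ± 0.95, adjusted p = 0.0412). Its call was lost when any one library other than Romidepsin replicate 3 was left out and in 2 other alternatives (adjusted p up to 0.166). In this list 3 fell and 1, Cd36, rose with the replicate block, and 4 fell without Romidepsin replicate 3. Cd14, which hands lipopolysaccharide to Tlr4, had 371 ± 259 CPM in treated and 445 ± 161 CPM in untreated cells (−0.26 ± 0.57, adjusted p = 0.734). Of 12 negative regulators, 2 fell and 1 rose (16.7% and 8.33%, against 16.2% and 20.3% of all tested genes), but none fell with housekeeping scaling or without Romidepsin replicate 1, 2 or 4 or untreated replicate 3, and none rose without any one of these 4 libraries or untreated replicate 1 or 2. Of 15 tested genes that receptor signalling is known to induce, 4 rose, 1 fell and 10 did not pass. The shares were 26.7% higher and 6.67% lower, against 20.3% and 16.2% of all tested genes. The number that fell was 0 without Romidepsin replicate 1 or untreated replicate 2 or 3, 2 without Romidepsin replicate 2 or untreated replicate 1, 4 without Romidepsin replicate 3 and 3 with the replicate block. Ptgs2, the prostaglandin-producing cyclooxygenase, rose by 5.46 (SE 0.94, adjusted p = 0.00387), and the neutrophil chemokine gene Cxcl1 by 2.90 (SE 0.61, adjusted p = 0.00811), while the chemokine gene Ccl4 fell by 1.94 (adjusted p = 0.0288), its call being lost in 7 alternatives (adjusted p up to 0.0871), among them the omission of Romidepsin replicate 1, 2 or 4 or of untreated replicate 2 or 3. Of the pathway genes named here, Cd180, Ctsb, Ctsl, Irak4, Irf5, Myd88, Slc15a4 and Tirap share exon sequence with a gene on the opposite strand. Ctsl also shares exon sequence with a gene on its own strand.

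**Figure D5:**
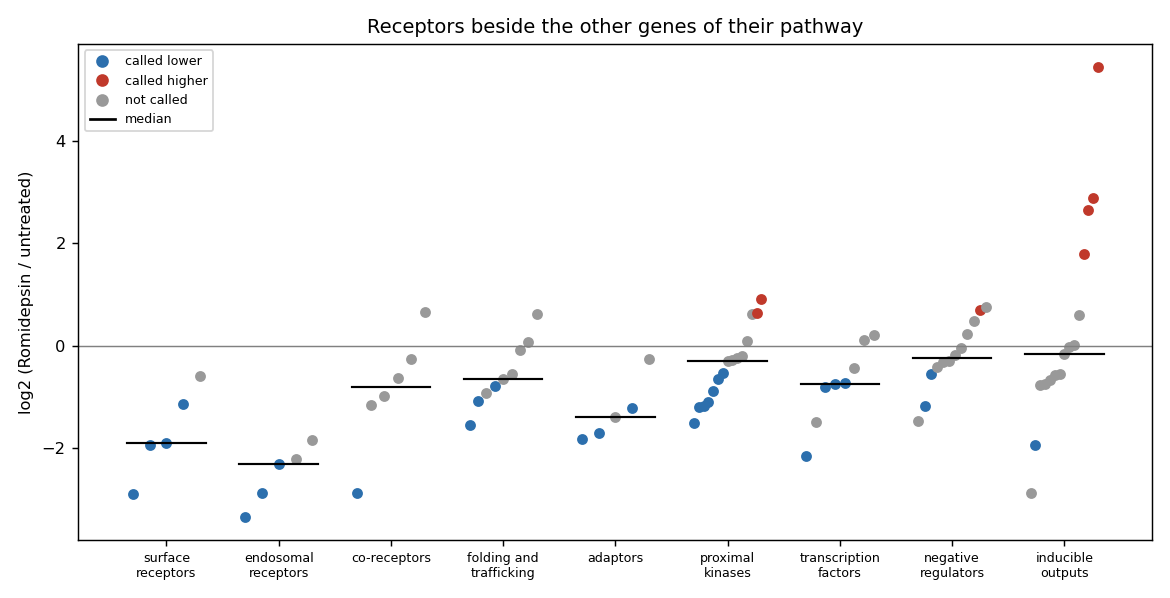
Log2 fold changes of the tested receptors and of the other pathway genes by list, 1 point per gene, sorted within a list, coloured by the call in edgeR's test (blue lower, red higher, grey not called), with a bar at each median. The receptor medians are −1.91 and −2.32, and the inducible outputs hold the highest values, led by Ptgs2 at 5.46.

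Some markers of other cells moved with the treatment as well, and in bulk RNA fewer cells of a type and less RNA per cell cannot be told apart. Of all tested genes 16.2% were called lower, and 20.8% with the replicate block. Of 8 B cell markers 6 were called lower, and 8 with the block. Their summed level was 32.8 to 443 CPM in treated and 295 to 1003 CPM in untreated libraries, with none of the 8 at 0 in any library. This sum was highest in replicate 2 of each group, where Ighm alone was at 357 CPM in the treated and 642 CPM in the untreated library. Tlr7 and Tlr9 were highest in replicate 3 of the treated and replicate 4 of the untreated group. Of 6 macrophage markers, none was called in edgeR, where 2 were lower at an unadjusted p under 0.05, while DESeq2 called 2 and edgeR with the replicate block 3 (Mertk, Cd68 and Csf1r). Their sum was 1151, 1820, 4355 and 3167 CPM in Romidepsin replicates 1 to 4 and 3170, 4687, 6625 and 7578 CPM in untreated replicates 1 to 4. Romidepsin replicate 3 and untreated replicate 4 held the highest sums, with Csf1r alone at 4701 CPM in untreated replicate 4. Single markers differed: Cd68 was highest in untreated replicate 3 (1878 CPM) and Marco in Romidepsin replicate 4 (114 CPM among treated libraries). Of the receptors, 10 were highest in Romidepsin replicate 3 and 8 in untreated replicate 4. Whether either cell type accounts for receptor levels was not tested.

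Granulocyte and monocyte genes, 7 in number, summed to 693 to 3766 CPM in treated and 4017 to 7890 CPM in untreated libraries, with none called in edgeR, 0 at an unadjusted p under 0.05, 1 in DESeq2 and 1 (Ly6c2) with the replicate block. Conventional dendritic cell markers summed to 16.6 to 112 CPM in treated and 124 to 347 CPM in untreated libraries, with 2 of 5 tested called lower and, with the replicate block, 1 called higher. Over all tested genes, 16.2% were called lower, and 20.8% with the replicate block. Plasmacytoid dendritic cell markers summed to 503 to 1366 CPM in treated and 842 to 1945 CPM in untreated libraries. Of 4 tested, Ly6d was called lower, Bst2 was added with the replicate block, and Siglech, not tested, was at or below 0.165 CPM in all libraries. T and NK cell markers summed to 2.47 to 6.73 CPM in treated and 8.12 to 26.2 CPM in untreated libraries. The sums of 2 lists overlapped widely: erythroid and megakaryocyte markers had 313 to 699 CPM in treated and 292 to 632 CPM in untreated libraries, and fibroblast or stromal markers 7.91 to 163 CPM in treated and 4.56 to 58.1 CPM in untreated libraries. The part of these cell populations in the receptor differences was not tested.

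The scaling of libraries touched the size of these differences but not their direction. Over all genes, 2080 were called lower and 2610 higher with TMM, so that higher genes made up 55.7% of calls, against 74.0% with library size alone and 76.0% with scaling to 10 housekeeping genes. Those scalings moved the median of all genes to 0.31 and 0.21. Each of the 10 receptors kept a fold change below 0 under every alternative that could test it, the nearest to 0 being Tlr5 at −0.35 without Romidepsin replicate 1. The number called fell to 4 with housekeeping scaling.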

How the data were processed

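RNA was measured in 8 libraries, 4 of Romidepsin-treated and 4 of untreated MDSCs, grouped by their titles. The deposited values are raw counts per Ensembl gene. The submitters' processing notes name STAR 2.5.2a, FastQC and DESeq2, and the build GRCm38 (mm10). They do not say which tool, annotation or strand setting gave the counts. Of 26930 identifiers 26881 matched a symbol.

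The counts were analysed with edgeR 4.0.16 in R 4.3.3: filterByExpr, TMM scaling and a robust quasi-likelihood F test, two-sided, with Benjamini-Hochberg adjustment over 12852 genes and a threshold of 0.05. The SE is the log2 fold change divided by the square root of F. Log2 CPM used a prior count of 2. The fit was tested on counts simulated at the dispersions estimated from these libraries. Receptors, lists, tests and alternatives were chosen with earlier results of these data known. Of each pathway list, up to 3 called genes of the majority direction and 1 of the other with the smallest p, and the most abundant uncalled gene, could be named, and the text names a part of them. Likeness was taken for the surface and the endosomal receptor with the highest mean CPM. Exon lengths are those of merged GENCODE exons on GRCm38, and promoters are from RefSeq.

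Whether shared replicate numbers pair the libraries was checked on deviations from the group means. The correlation within numbers 1 to 4 was 0.525, 0.270, 0.457 and 0.171, above the 0.1 set for pairing, and at most 0.0467 between numbers. The numbers were therefore taken to pair the samples, as the data and no label show. The reported fit and the fits with libraries left out leave the pairing out, so their SEs also hold the differences between numbers. Calls lost when a library was left out therefore do not describe the paired fit. With the replicate block the SE was smaller for every receptor but Tlr5 (0.53 without and 0.55 with it). Log2 fold changes were then −2.98 ± 0.51 for Tlr8 and −3.95 ± 0.69 for Tlr13. They lay further from 0 than in the reported fit for every receptor but Tlr9 (−2.22 with the block). Alternatives were library size, DESeq2 size factors, housekeeping scaling, 2 other count filters, the DESeq2 1.42.0 Wald test, limma-voom (limma 3.58.1), the replicate block and leaving out libraries.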

Additional observations from a re-analysis of the deposited data

Results flagged for a closer look

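In 76 groups of 4 libraries, those of the 10 receptors and of the pathway genes taken by the naming rule, 3 had 1 library far from the others, near the 1 in 20 that the criterion gives by chance, and none of them was a receptor group. Nfkb1, an NF-kB subunit gene, was at 103 CPM in Romidepsin replicate 2 and at 74.3 to 78.9 CPM in the other treated libraries. Socs1, an inhibitor of cytokine signalling, was at 9.33 CPM in Romidepsin replicate 3 and at 4.38 to 4.66 CPM in the others. Ccl4 was at 15.7 CPM in Romidepsin replicate 3 and at 2.92 to 4.66 CPM in the others.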

How the results depend on the processing

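The number of receptors called lower, 7, was 4 with housekeeping scaling and 2 with no count filter, 9 with the replicate block, and 1 to 10 when 1 library was left out. The median log2 fold change lay between −2.66 and −1.63 for surface receptors and between −3.65 and −1.80 for endosomal receptors when 1 library was left out. With a minimum mean of 10 CPM, Tlr5 was not tested and gave no value. Of the pathway genes, 21 were called lower and 7 higher, against 7 lower with housekeeping scaling and 11 higher with library size alone, and 10 to 31 lower and 4 to 9 higher when 1 library was left out. Over all genes, 2080 lower calls became 1368 with library size alone and 998 with housekeeping scaling. Leaving out 1 library gave 1187 to 3077 lower and 1793 to 3270 higher genes. Of 21 called pathway genes taken by the rule, 8 kept their call in all 17 alternatives. Uncalled genes changed sign: with library size alone Ticam1 was at 0.034 and Ikbkb at 0.083, and Cd14 lay between −0.75 and 0.079 when 1 library was left out, above 0 without Romidepsin replicate 1. The causes were not tested. The lowest receptor counts were 20 for Tlr6 and 28 for Tlr5, both in Romidepsin replicate 2.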

Other observations

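Tlr11 and Tlr12, the remaining mouse receptors of the family, were near the limit of detection. Tlr11 had 0, 1, 4 and 3 counts in Romidepsin replicates 1 to 4 and 5, 4, 6 and 8 counts in untreated replicates 1 to 4. Tlr12 had 2, 1, 1 and 9 counts in treated and 13, 29, 11 and 15 counts in untreated libraries.

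The profile most like that of Tlr13 over the 8 libraries was that of Bcl6, a transcriptional repressor gene (Pearson r = 0.999 of log2 CPM), followed by Csf2rb2, a cytokine receptor gene (0.998), and Mtus1 (0.998). For Tlr2 the closest were Dock8 (0.993), Peli2 (0.990) and Itpripl2 (0.990), among 8820 candidate genes averaging 10 CPM or more. All points share their library and its treatment, so these values describe these libraries only. Between receptors, Tlr7 and Tlr13 were most alike (r = 0.989), and Tlr5 and Tlr9 least (0.673).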
